A study of Homo sapiens with 10 samples.

Results

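A set of 10 regulators of the Notch pathway and of the intestinal secretory lineage were followed through LS180, an established human colorectal cancer line that makes gel-forming mucins. They were the transcription factors ATOH1, SPDEF, GFI1, FOXA3 and CREB3L1, the HES family members HES1 and HES6, the ligands DLL1 and DLL4 and the receptor NOTCH1. They were chosen by gene symbol, and all 10 were found among the 58870 genes of the expected count table. The lines carried CRISPR interference, in which a catalytically inactive Cas9 is led by a guide RNA to a gene and represses its transcription. Lines sg1, sg2 and sg3 carried guides against RNASE1, a secreted ribonuclease, and lines NTC2 and NTC1 carried non-targeting guides. Every line gave a library lettered B and a library lettered A, 10 libraries in all from cells that received no drug and were grown in DMEM with fetal bovine serum. The labels do not say what the letters stand for, whether the libraries of a line came from separate cultures, whether a line is a clone, or which promoter drives the inactive Cas9. The p-values therefore measure the spread between these lines and libraries, which may be technical in part.

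In the intestinal crypt, a Delta or Jagged ligand on a cell activates a Notch receptor on its neighbour. The cleaved receptor then joins the DNA-binding protein RBPJ and switches on HES1, a repressor of ATOH1. Cells that escape this signal keep ATOH1, which directs them to the secretory fate and stands above GFI1 and SPDEF. SPDEF drives goblet cell maturation, and FOXA3 and CREB3L1 are transcription factors of secretory cells, the last a regulator of secretory capacity in the endoplasmic reticulum and Golgi. HES6 is unlike HES1 in that it can oppose HES1, and it has been described as a target of proneural factors. Goblet cells are known for MUC2, the main secreted mucin of the colon, while MUC5AC, MUC5B and MUC6 are gel-forming mucins of other epithelia that colorectal tumours can also make.

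Promoter sequence is shown for ATOH1 and SPDEF, which were higher in the B libraries, and for HES1, which did not pass that test. The windows are the 250 bases before the RefSeq start on GRCh38.p14, read 5′ to 3′ on the strand of the gene. Capitals mark TGGGAA, the core bound by RBPJ, or CACNAG, the N-box bound by HES proteins, each searched on both strands. The ATOH1 window is chr4:93828503-93828752 on the plus strand, the SPDEF window is chr6:34556330-34556579 on the minus strand, and the HES1 window is chr3:194135898-194136147 on the plus strand.
ATOH1: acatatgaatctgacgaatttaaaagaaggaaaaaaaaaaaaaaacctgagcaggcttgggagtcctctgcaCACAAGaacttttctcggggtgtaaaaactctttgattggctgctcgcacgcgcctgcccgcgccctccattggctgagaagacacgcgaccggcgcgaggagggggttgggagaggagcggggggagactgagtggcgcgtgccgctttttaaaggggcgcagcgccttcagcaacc
SPDEF: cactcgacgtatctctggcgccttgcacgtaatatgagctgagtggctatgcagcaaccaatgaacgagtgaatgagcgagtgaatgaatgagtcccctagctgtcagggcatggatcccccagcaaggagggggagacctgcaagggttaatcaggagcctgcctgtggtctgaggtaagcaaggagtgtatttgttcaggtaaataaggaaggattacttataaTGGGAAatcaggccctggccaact
HES1: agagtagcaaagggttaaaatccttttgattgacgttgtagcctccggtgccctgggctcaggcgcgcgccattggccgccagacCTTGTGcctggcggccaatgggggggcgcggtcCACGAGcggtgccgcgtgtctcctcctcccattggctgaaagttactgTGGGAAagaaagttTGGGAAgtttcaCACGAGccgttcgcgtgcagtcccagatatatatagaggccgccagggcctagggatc
The HES1 window held 2 copies of TGGGAA, at 84 and 70 bases before the start, and 3 N-boxes; HES1 is a known Notch target whose product also represses its own gene. The SPDEF window held 1 copy of TGGGAA, at 24 bases before the start, and the ATOH1 window held 1 N-box, at 178 bases before the start. Of 35116 windows of the same length, 20.8% held TGGGAA and 32.0% held an N-box, so a match in a given window is common. The E-box CAGCTG was found in 4911 of the 35116 windows and, among the members, in those of FOXA3 and HES6. Promoter entries matched 9 of the 10 members, all but DLL1.

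In GENCODE 29 on GRCh38 the secretory factors are ATOH1 at chr4:93828753-93830964 (plus strand), SPDEF at chr6:34537802-34556333 (minus strand), GFI1 at chr1:92474762-92486876 (minus strand), FOXA3 at chr19:45863989-45873797 (plus strand) and CREB3L1 at chr11:46277661-46321422 (plus strand). The HES genes are HES1 at chr3:194136145-194138732 (plus strand) and HES6 at chr2:238238267-238240662 (minus strand). The ligands and the receptor are DLL1 at chr6:170282206-170306565 (minus strand), DLL4 at chr15:40929333-40939073 (plus strand) and NOTCH1 at chr9:136494433-136545786 (minus strand). All 10 are annotated as protein-coding genes.

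Library totals ran from 39026564 to 45050950 counts. RNASE1, the targeted gene, had 1.37, 3.76 and 1.58 CPM (counts scaled for library size by TMM) in the B libraries of sg1, sg2 and sg3, against 22.9 and 23.7 CPM in those of NTC2 and NTC1. It had 1.02, 3.35 and 1.66 CPM in the A libraries of sg1, sg2 and sg3, against 19.3 and 16.3 CPM in those of NTC2 and NTC1. Every guide library was below every NTC library, with a log2 fold change of -3.26 (SE 0.23; edgeR quasi-likelihood test, adjusted p = 8.37e-05 over all genes tested). The identity of the cells was checked against 12 genes of colorectal epithelium, whose summed level was 6992 to 7907 CPM in B libraries and 8469 to 8649 CPM in A libraries. Fibroblast markers summed to 3.93 to 5.53 CPM in B libraries and 4.12 to 5.18 CPM in A libraries, and 1 of 8 was at 0 in every library. Endothelial markers summed to 0.17 to 0.36 CPM in B libraries and 0.02 to 0.19 CPM in A libraries, with 2 of 6 at 0. Tuft cell markers summed to 0.64 to 0.81 CPM in B libraries and 0.62 to 1.09 CPM in A libraries, with 3 of 9 at 0. Leukocyte markers summed to 35.9 to 45.9 CPM in B libraries and 43.4 to 46.8 CPM in A libraries, of which LYZ, also a Paneth cell gene, gave 34.1 CPM on average. PTPRC and MS4A1, which define leukocytes and B cells, were at 0 in every library.

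Measured per length, as RPKM (reads per kilobase of exon, scaled for library size), HES6 was the most abundant of the 10, at 73.2 ± 3.43 RPKM (SD over 10 libraries), followed by NOTCH1 at 19.5 ± 2.72 RPKM. HES1 (12.96 ± 0.51 RPKM) and ATOH1 (11.4 ± 2.17 RPKM) came next, and their ranges overlapped. CREB3L1 stood at 8.13 ± 0.39 RPKM. FOXA3 (6.43 ± 0.38 RPKM), DLL4 (5.43 ± 0.79 RPKM), SPDEF (5.01 ± 0.72 RPKM) and DLL1 (3.62 ± 0.42 RPKM) followed, each overlapping the next in range. GFI1 was the lowest, at 0.672 ± 0.150 RPKM, which corresponds to 62 to 124 counts per library. For scale, MUC6 stood at 33.5 RPKM, MUC2 at 7.70 RPKM, MUC5AC at 4.51 RPKM and MUC5B at 3.15 RPKM. Among the other receptors NOTCH2 stood at 8.51 ± 0.35 RPKM, with NOTCH3 and NOTCH4 at 0.146 and 0.104 RPKM, and among the other ligands JAG1 stood at 17.1 ± 1.02 RPKM and JAG2 at 3.39 ± 0.63 RPKM. RNA of a ligand and of its receptor was therefore present in the same culture, without information on which cells carried either. In these bulk libraries, fewer cells of a type and less RNA per cell cannot be told apart.

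**Figure D1:**
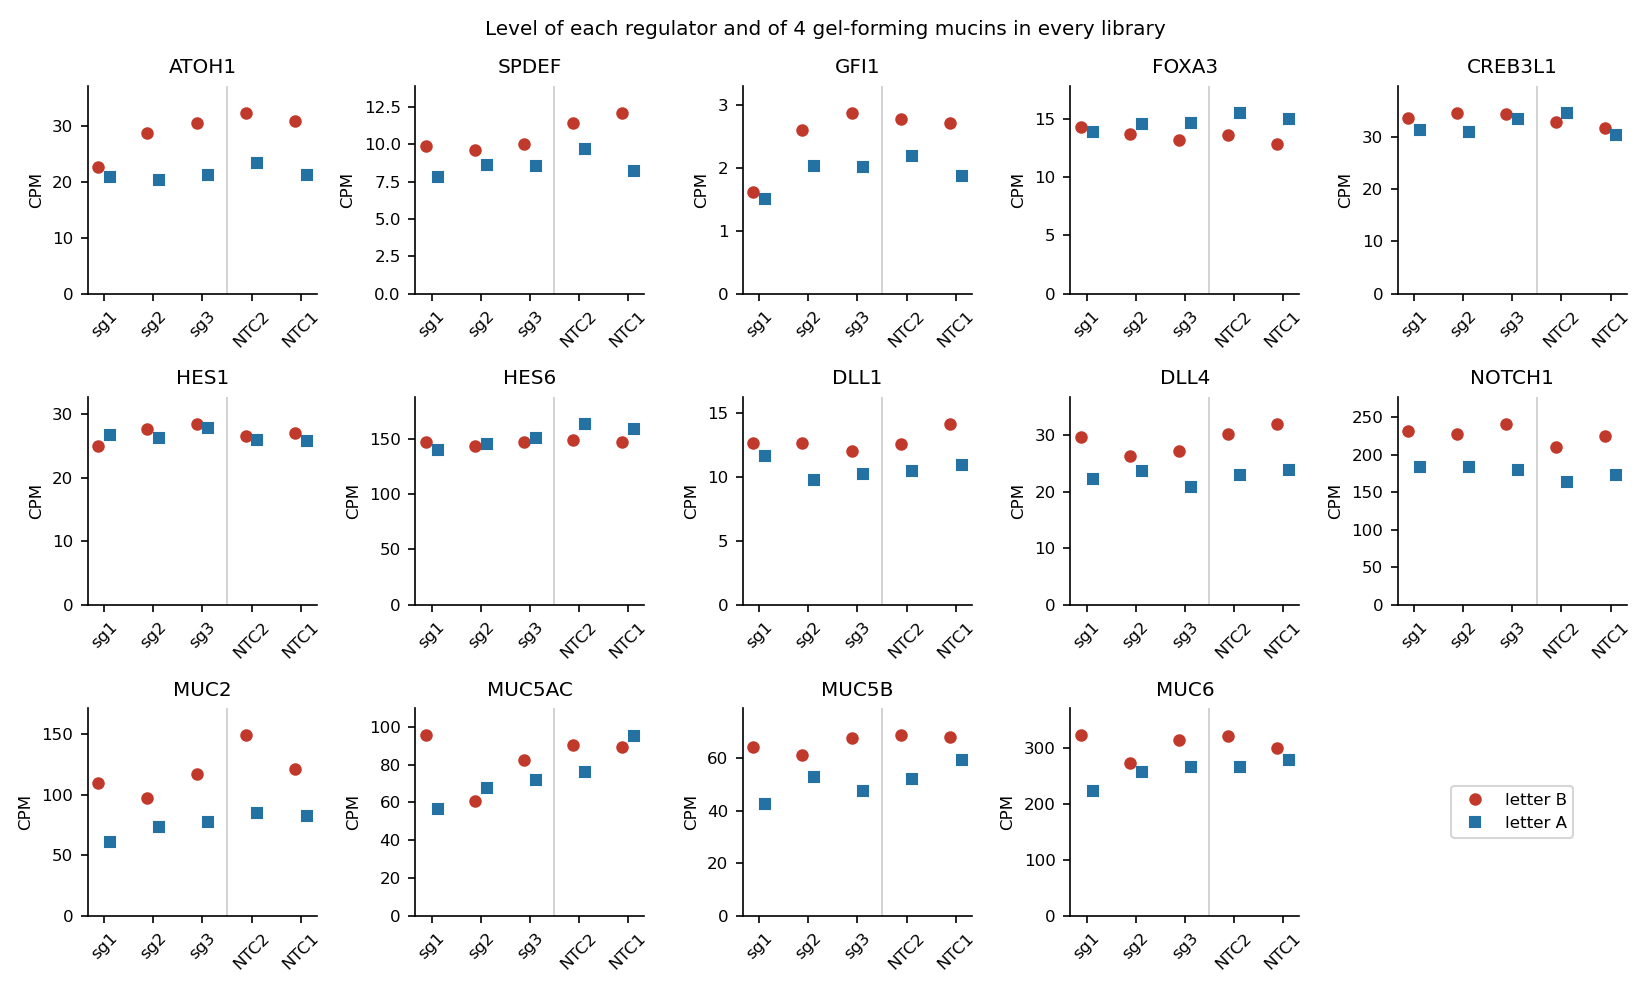
Level (CPM, y axis from 0) of each of the 10 regulators and of 4 mucins in every library, by line, with circles for letter B and squares for letter A; the guide lines stand left of the grey line and the NTC lines right of it. NOTCH1 ran from 211 to 241 CPM in the B libraries, above the 163 to 184 CPM of the A libraries, while HES1 stayed between 24.9 and 28.4 CPM in all libraries.

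With each line as its own control, 6 of the 10 regulators rose in the B libraries and none fell: ATOH1, SPDEF, GFI1, DLL1, DLL4 and NOTCH1. Over all 16411 genes tested, 29.6% passed the same test, with 14.6% higher and 15.0% lower in B (edgeR quasi-likelihood test with line as a term, adjusted p under 0.05). FOXA3, CREB3L1, HES1 and HES6 did not pass. DESeq2 called 5 of the 10, which were those that rose by edgeR without GFI1. By edgeR 7 of the 10 had an unadjusted p under 0.05, beside 39.5% of all genes, and by DESeq2 6 of the 10 did. The median log2 fold change over the 10 members was 0.29, beside 0.00 over all genes tested. A passed test here says that the letters differ, not what the difference between them is, since the labels leave it unnamed.

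ATOH1, the factor that commits cells to the secretory fate, had 22.8, 28.8, 30.6, 32.4 and 30.9 CPM in the B libraries of sg1, sg2, sg3, NTC2 and NTC1, against 20.8, 20.4, 21.2, 23.4 and 21.3 CPM in their A libraries. B was above A in all 5 lines, which held for 17.0% of all genes tested, but the B library of sg1 lay within the A range. The log2 fold change was 0.44 (SE 0.05, adjusted p = 6.87e-05), a rise of 35.4% (95% interval 25.1% to 46.5%). SPDEF had 9.89, 9.60, 10.01, 11.4 and 12.1 CPM in the B libraries, against 7.81, 8.62, 8.57, 9.67 and 8.24 CPM in the A libraries of the same lines. Only the A library of NTC2 reached into the B range. Its log2 fold change was 0.30 (SE 0.07, adjusted p = 0.0034).

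GFI1, a repressor that acts below ATOH1 in secretory precursors, had 1.62, 2.61, 2.87, 2.78 and 2.71 CPM in the B libraries, against 1.499, 2.03, 2.01, 2.19 and 1.87 CPM in the A libraries. Both sg1 libraries were the lowest of their letter. The log2 fold change was 0.38 (SE 0.12, adjusted p = 0.0297). This call was lost with DESeq2 (adjusted p = 0.136) and when line sg2 (0.0717), sg3 (0.107), NTC2 (0.0656) or NTC1 (0.103) was left out. FOXA3 ran from 12.8 to 14.3 CPM in the B libraries and from 13.8 to 15.5 CPM in the A libraries, with a log2 difference of -0.12 (SE 0.05, adjusted p = 0.103). Without line sg1 the difference of FOXA3 was -0.16 and passed (adjusted p = 0.0309). CREB3L1 ran from 31.8 to 34.5 CPM in the B libraries and from 30.3 to 34.6 CPM in the A libraries, with a log2 difference of 0.06 (95% interval -0.02 to 0.14, adjusted p = 0.269).

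NOTCH1 had 232, 227, 241, 211 and 225 CPM in the B libraries of sg1, sg2, sg3, NTC2 and NTC1, against 184, 183, 180.03, 163 and 173 CPM in their A libraries. The letters did not overlap, which held for 9.27% of all genes tested with B above A. The log2 fold change was 0.36 (SE 0.03, adjusted p = 1.64e-06), and the log2 ratio of B to A ran from 0.31 in sg2 to 0.42 in sg3. DLL4 had 29.7, 26.3, 27.2, 30.1 and 31.9 CPM in the B libraries, against 22.3, 23.6, 20.9, 22.9 and 23.8 CPM in the A libraries. Its letters did not overlap either, and its log2 fold change was 0.36 (SE 0.04, adjusted p = 8.41e-05). DLL1 had 12.6, 12.6, 12.02, 12.6 and 14.1 CPM in the B libraries, against 11.6, 9.74, 10.3, 10.5 and 10.9 CPM in the A libraries, again without overlap (log2 fold change 0.27, SE 0.05, adjusted p = 0.0022). DLL1 lies over part of FAM120B on the opposite strand, which had 14150 counts over the 10 libraries beside 4967 for DLL1. The library kit does not mark strand, so reads from their shared stretch cannot be told apart.

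HES1, the effector of the pathway, had 24.9, 27.6, 28.4, 26.5 and 27.1 CPM in the B libraries, against 26.7, 26.3, 27.8, 26.0 and 25.8 CPM in the A libraries. Its letters overlapped, and its log2 difference was 0.02 (95% interval -0.06 to 0.10, adjusted p = 0.705). HES6 had 147, 143, 147, 149 and 147 CPM in the B libraries, against 140.07, 145, 151, 163 and 159 CPM in the A libraries. The log2 difference was -0.04 (95% interval -0.11 to 0.03, adjusted p = 0.342). The 95% interval of HES1 reached from -3.99% to 7.49%, and that of NOTCH1 from 23.8% to 33.9%.

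**Figure D2:**
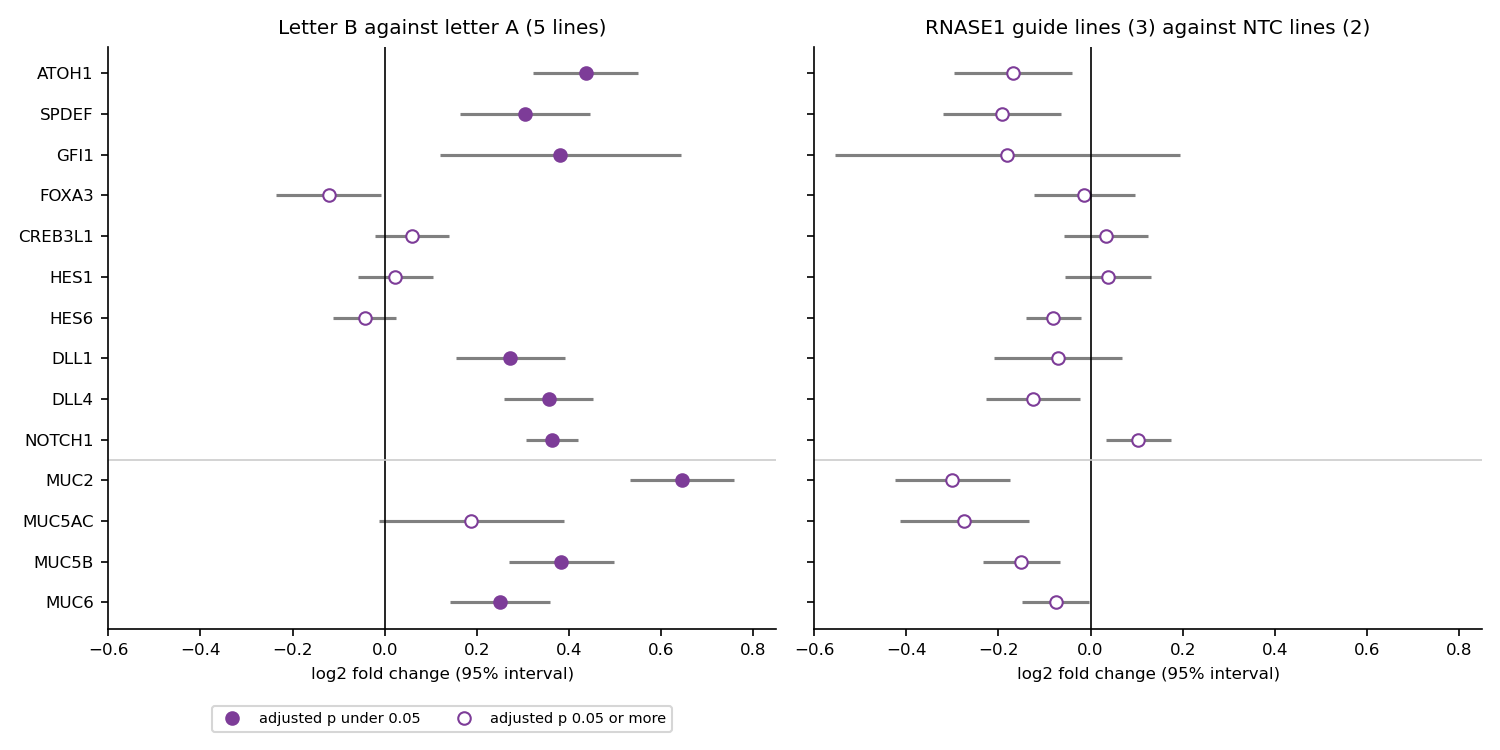
Log2 fold change with its 95% interval for each regulator and mucin, letter B against letter A on the left and guide lines against NTC lines on the right; filled points had an adjusted p under 0.05. On the left 6 regulators and 3 mucins are filled and positive, and on the right no regulator or mucin is filled.

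Of the 4 gel-forming mucins, 3 rose in the B libraries by the same test. MUC2 had 109.9, 97.8, 117, 149 and 121 CPM in the B libraries, against 61.3, 73.3, 77.3, 85.3 and 82.4 CPM in the A libraries (log2 fold change 0.65, SE 0.05, adjusted p = 4.39e-06). MUC5B had a log2 fold change of 0.38 (SE 0.05, adjusted p = 0.000159) and MUC6 of 0.25 (SE 0.05, adjusted p = 0.00224). MUC5AC differed by 0.19 (SE 0.09, adjusted p = 0.152), and it passed without the filter on low counts and without line sg2. ATOH1, SPDEF and GFI1 and 3 mucins thus all stood higher in B. Their B to A ratios varied in value from line to line, but tests of each line against the others called none of them.

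Line sg1 is described on its own, a choice made after its values were seen. Between its libraries the log2 ratio of B to A was 0.13 for ATOH1, against 0.50 in sg2, 0.53 in sg3, 0.47 in NTC2 and 0.53 in NTC1. For GFI1 it was 0.11 in sg1, against 0.36, 0.51, 0.35 and 0.54 in the same other lines, and that difference did not stand out from its error (-0.31, SE 0.32, edgeR unadjusted p = 0.345). The mucins of sg1 had the opposite rank, with a ratio of 0.84 for MUC2, 0.76 for MUC5AC, 0.60 for MUC5B and 0.53 for MUC6, each the highest of the 5 lines. The letter change of ATOH1 in sg1 minus that in the other lines was -0.37 on the log2 scale (SE 0.09, unadjusted p = 0.00154, adjusted p = 0.289 by edgeR). The same difference was 0.72 for MUC5AC (SE 0.13, unadjusted p = 8.98e-05, adjusted p = 0.0982) and 0.36 for MUC6 (SE 0.08, unadjusted p = 0.000459, adjusted p = 0.193). It was 0.29 for MUC5B and 0.26 for MUC2 (unadjusted p = 0.0214 and 0.0399, adjusted p = 0.525 and 0.583). In sg1, 1 gene of 16411 passed (0.00609%), which was neither a member nor a mucin, and 8.33% of all genes had an unadjusted p under 0.05. Of the 10 members, 2 had an unadjusted p under 0.05 in sg1 (ATOH1 and HES6, the second with a difference of 0.16, SE 0.07, unadjusted p = 0.0321, adjusted p = 0.565), 1 in sg2 and 0 in sg3, NTC2 and NTC1, beside 3.22% of all genes in sg2, 1.77% in sg3, 9.38% in NTC2 and 3.55% in NTC1. No member passed in any line, where 0.0366%, 0%, 0.0183% and 0.0122% of all genes did in sg2, sg3, NTC2 and NTC1. No other tool was run on this difference.

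**Figure D3:**
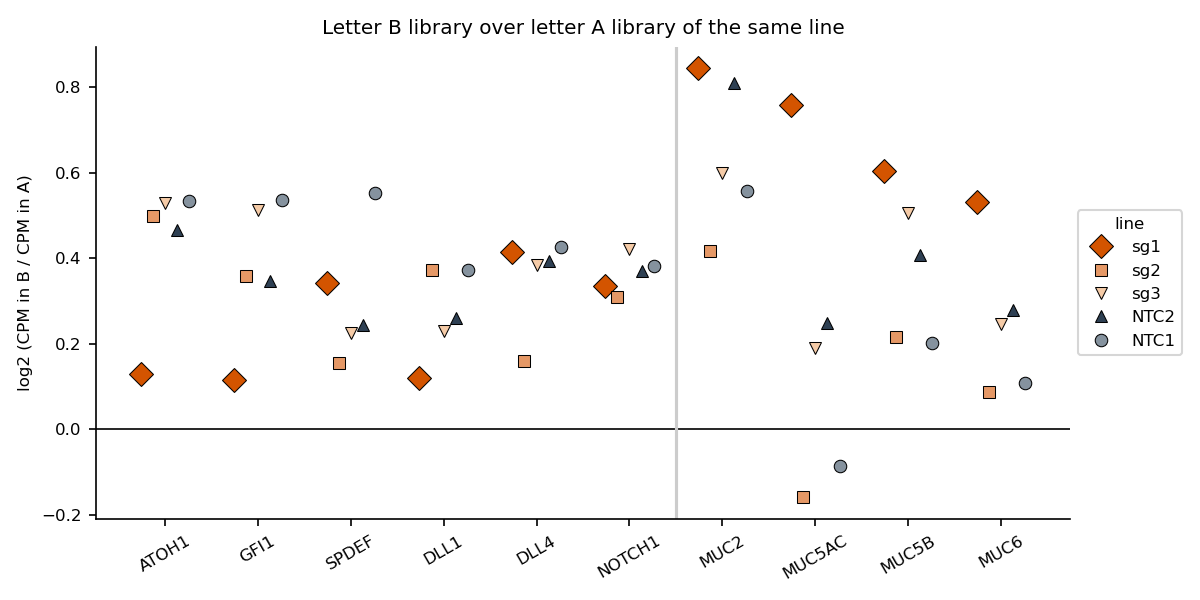
Log2 ratio of CPM in the B library to CPM in the A library of the same line, for 6 regulators (left of the grey line) and 4 mucins (right of it), 1 point per line. The large diamonds of sg1 are lowest of the lines for ATOH1 (0.13), GFI1 (0.11) and DLL1 (0.12) and highest for all 4 mucins.

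The other genes of the pathway were compared between the letters in the same fit, in which 14.6% of all genes were called higher and 15.0% lower. Among the secretory lineage transcription factors, 7 of 15 tested rose and 1 fell. Beside the members, SOX4, a factor of early secretory and stem cells, rose by 0.31 (log2, SE 0.03, adjusted p = 1.97e-05). ELF3, an epithelial factor of the ETS family, rose by 0.32 (SE 0.04, adjusted p = 7.92e-05), and FOXA1 by 0.15 (SE 0.03, adjusted p = 0.0019). XBP1, which expands the secretory machinery, had a log2 fold change of -0.12 (SE 0.03, adjusted p = 0.00629). Of the 4 receptors, NOTCH1 rose and NOTCH2 fell, with a log2 fold change of -0.10 (SE 0.03, adjusted p = 0.0137), a call lost without line sg2 (adjusted p = 0.0626).

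Of 5 ligands tested, 3 rose and 1 fell. JAG2 had 26.6, 24.8, 25.6, 24.6 and 25.4 CPM in the B libraries, against 17.3, 19.1, 18.9, 18.5 and 16.0 CPM in the A libraries, a log2 fold change of 0.50 (SE 0.05, adjusted p = 1.52e-05). JAG1 fell by 0.13 (SE 0.03, adjusted p = 0.0053). The level of JAG1 was above that of DLL1, DLL4 and JAG2 on the RPKM scale. Of 11 genes for ligand endocytosis and receptor trafficking, 5 rose and 0 fell. NEURL1, a ubiquitin ligase for ligands, rose by 0.54 (SE 0.07, adjusted p = 0.000105) and NUMBL, related to the Notch inhibitor NUMB, by 0.23 (SE 0.06, adjusted p = 0.0101). EPN1 and DTX4 rose by 0.09 and 0.10, calls lost when sg2, sg3 or NTC1 was left out, and that of NUMBL was lost with DESeq2 (adjusted p = 0.058). The remaining gene of the 5, ITCH, lost its call in 5 of 9 alternatives.

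Of 13 genes for receptor processing and glycosylation, 2 rose and 2 fell, a share near that of all genes. ADAM10, the protease that makes the first ligand-induced cut, rose by 0.19 (SE 0.03, adjusted p = 0.000746). POFUT1, which fucosylates the receptor, rose by 0.10 (SE 0.03, adjusted p = 0.00866), not past the threshold without line sg3 (0.0577). APH1A, a subunit of gamma-secretase, fell by 0.15 (SE 0.03, adjusted p = 0.000749).

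Of 14 genes of the nuclear complex, 9 rose and 0 fell, though RBPJ itself did not pass (log2 difference -0.05, adjusted p = 0.181). Of the 9, KDM5A lost its call in 5 of 9 alternatives and CIR1 in 4 of 9, with DESeq2 or a line left out; both are named for that reason, after their values were seen. The corepressors SPEN and NCOR1 rose by 0.37 (SE 0.04, adjusted p = 3.48e-05) and 0.31 (SE 0.04, adjusted p = 8.28e-05). The coactivator EP300 rose by 0.26 (SE 0.03, adjusted p = 2.91e-05). Of 10 HES, HEY and other target genes, 1 rose and 0 fell. That gene was NRARP, a feedback inhibitor, with a log2 fold change of 0.08 (SE 0.03, adjusted p = 0.0479), a call lost with GC offsets (adjusted p = 0.0615) and when sg2, sg3, NTC2 or NTC1 was left out. Over all listed genes, 63 of the 136 tested by edgeR passed, and DESeq2 called 55 of the 193 in the table. The 193 include genes with low counts or none, which DESeq2 can leave without an adjusted p, so these shares cannot be compared.

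**Figure D4:**
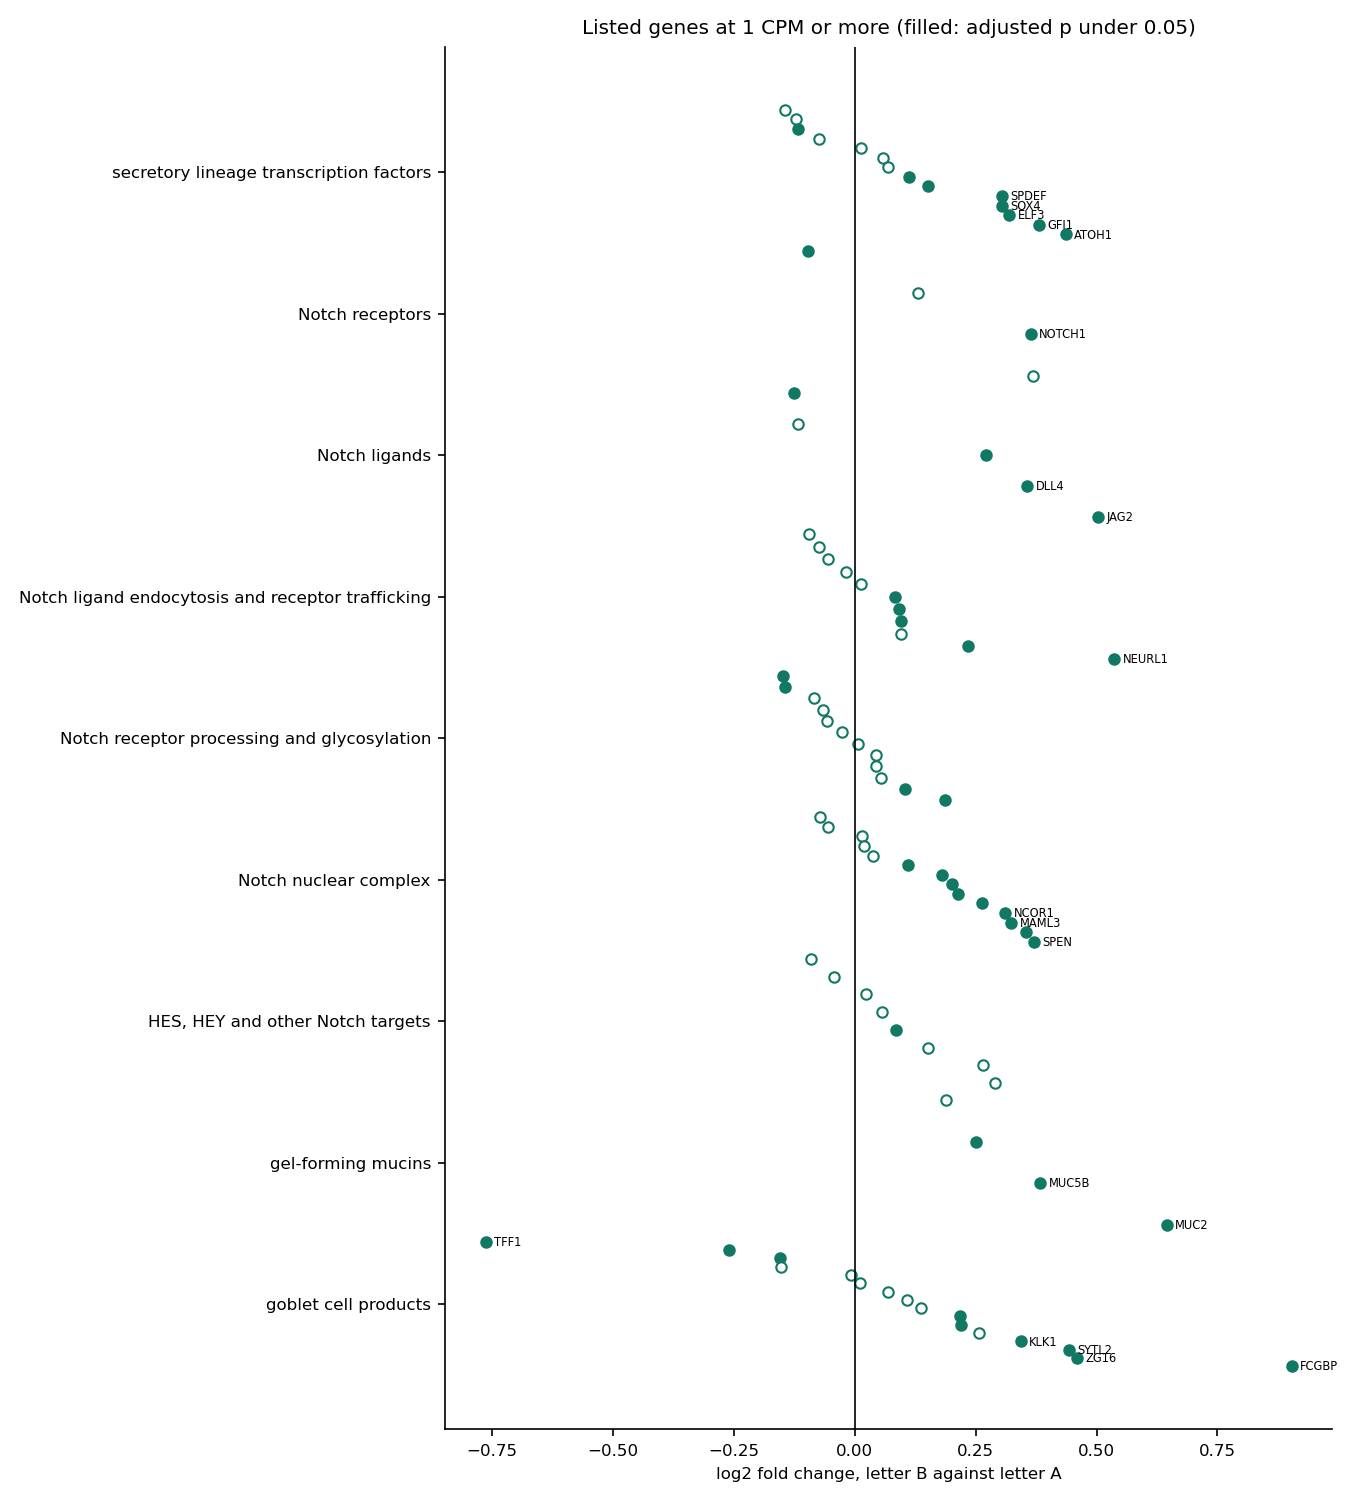
Log2 fold change of letter B against letter A for the genes of 9 lists with a mean of 1 CPM or more, a row of points per list; filled points had an adjusted p under 0.05, and most of those beyond 0.3 in size are named. Nuclear complex genes lie mostly right of 0, up to 0.37 for SPEN, while 1 of the HES and HEY row is filled.

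Products and markers of the lineages were compared between the letters in the same fit. Of 20 goblet cell products tested, 7 rose and 3 fell. FCGBP, a mucus component, rose by 0.90 (SE 0.04, adjusted p = 2.61e-07), ST6GALNAC1 by 0.22 (SE 0.03, adjusted p = 9.84e-05), KLK1 by 0.34 (SE 0.06, adjusted p = 0.000592) and TFF3, the trefoil peptide of goblet cells, by 0.22 (SE 0.04, adjusted p = 0.00136). TFF1, the trefoil peptide of gastric surface cells, fell by 0.76 (SE 0.05, adjusted p = 6.51e-07), TSPAN13 by 0.16 (SE 0.03, adjusted p = 0.00216) and AGR3 by 0.26 (SE 0.07, adjusted p = 0.0146). The AGR3 call was lost with DESeq2 (adjusted p = 0.0828) and without line sg2 or NTC2.

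Of 5 Paneth cell genes tested, 3 rose and 0 fell. DEFA6, an alpha defensin, had 2.71, 3.497, 3.54, 5.43 and 4.24 CPM in the B libraries, against 0.725, 1.14, 1.498, 1.64 and 0.8285 CPM in the A libraries, a log2 fold change of 1.75 (SE 0.15, adjusted p = 6.28e-06). DEFA5 rose by 1.39 (SE 0.14, adjusted p = 2.15e-05) and PLA2G2A, a secreted phospholipase, by 0.55 (SE 0.03, adjusted p = 2.80e-07). Of 6 enteroendocrine genes tested, 1 rose, NEUROG3, the endocrine fate factor, at a mean of 1.152 CPM (log2 fold change 0.67, SE 0.22, adjusted p = 0.0376), and that call was lost with DESeq2 and without sg3, NTC2 or NTC1. Of 9 absorptive cell genes tested, 2 rose (VIL1 by 0.16 and KRT20 by 0.41) and 3 fell (SLC5A1 by 0.31, DPP4 by 0.27 and CA2 by 0.69). Of 12 epithelial genes, 3 rose (VIL1, CDX2 and HNF4A) and 5 fell, among them the keratins KRT19 by 0.39, KRT18 by 0.38 and KRT8 by 0.38. Of 4 fibroblast, 3 leukocyte and 4 tuft cell genes tested, 1 (LUM, with a log2 fold change of -0.63 at a mean of 1.23 CPM, a call lost with DESeq2 and without sg2, sg3, NTC2 or NTC1), 0 and 0 passed, and no endothelial gene could be tested. The part of these markers in the changes of the 10 regulators was not tested.

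Between the arms of the study no regulator was called. None of the 10 passed the test of 3 guide lines against 2 NTC lines, in which 4 of 17335 genes (0.0231%) did (edgeR quasi-likelihood test on counts summed per line). Of the 10, 5 had an unadjusted p below 0.05, beside 7.98% of all genes, and DESeq2 called 0 of the 10 among 59 genes. Only HES6 and NOTCH1 of the 10 had an adjusted p in that DESeq2 fit, so the others could not be called by it. With the letter as a replicate block, 2 genes were called, again no member. Without the filter on low counts 238 genes were called, ATOH1 among them (adjusted p = 0.0432). The adjusted p of ATOH1 ran from 0.0432 to 0.938 over the alternatives that gave it one, which do not include DESeq2. Of the 141 listed genes tested, 0 passed and 37 had an unadjusted p under 0.05. DESeq2 called 2 of the 193 in the table, among them FCGBP, but not all of the 193 had an adjusted p.

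ATOH1 had 22.8, 28.8 and 30.6 CPM in the guide B libraries against 32.4 and 30.9 CPM in the NTC B libraries, and 20.8, 20.4 and 21.2 CPM in the guide A libraries against 23.4 and 21.3 CPM in the NTC A libraries. Within each letter every guide library was below every NTC library, which held for 1.66% of all genes tested. The log2 fold change was -0.17 (SE 0.06, unadjusted p = 0.0136, adjusted p = 0.472), with -0.20 in B alone and -0.11 in A alone. SPDEF differed by -0.19 (SE 0.06, unadjusted p = 0.00638, adjusted p = 0.395), with -0.26 in B alone and -0.10 in A alone, and its arms overlapped in A. GFI1 differed by -0.18 (SE 0.17, adjusted p = 0.837). FOXA3 and CREB3L1 differed by -0.01 (95% interval -0.12 to 0.10) and 0.03 (95% interval -0.06 to 0.12).

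NOTCH1 went the other way. It had 232, 227 and 241 CPM in the guide B libraries against 211 and 225 CPM in the NTC B libraries, and 184, 183 and 180.03 CPM in the guide A libraries against 163 and 173 CPM in the NTC A libraries. Within each letter every guide library was above every NTC library, which held for 2.0% of all genes tested. The log2 fold change was 0.10 (SE 0.03, unadjusted p = 0.00714, adjusted p = 0.415), with 0.10 in B alone and 0.12 in A alone. It was 0.15 without line NTC1 and 0.05 without line NTC2. DLL4 differed by -0.12 (SE 0.05, unadjusted p = 0.0196, adjusted p = 0.507) and DLL1 by -0.07 (SE 0.06, adjusted p = 0.832). HES6 differed by -0.08 (SE 0.03, unadjusted p = 0.0117, adjusted p = 0.461), with -0.02 in B alone and -0.15 in A alone, and HES1 by 0.04 (95% interval -0.05 to 0.13, adjusted p = 0.866).

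Over genes at 10 CPM or more, the arm difference went with the GC content of the transcript (Spearman rho 0.50 across 9523 genes, which are not independent replicates), and the letter difference did not (rho 0.02). With GC offsets the arm difference of NOTCH1 was 0.07 and that of ATOH1 -0.18. The difference of the arm effect between the letters was 0.13 on the log2 scale for HES6 (SE 0.06, unadjusted p = 0.0433, adjusted p = 0.867 by edgeR). HES6 was the only member with an unadjusted p under 0.05 in that test, beside 5.73% of all genes, and 0 genes passed.

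Single guides gave no call among the 10 regulators either. In the comparison of sg1, sg2 or sg3 with the NTC lines 1 gene of 16411 passed each time (0.00609%), which was RNASE1. The 30 values of a member in a guide ran from -0.60 to 0.12 on the log2 scale, and 1 of them had an unadjusted p under 0.05. That was GFI1 in sg1, with 1.62 and 1.499 CPM in sg1 (B and A) against 2.78 and 2.19 CPM in NTC2 and 2.71 and 1.87 CPM in NTC1. Its log2 difference was -0.60 (SE 0.24, unadjusted p = 0.0307, adjusted p = 1.00), beside 2.30% of genes with an unadjusted p under 0.05 in sg1, 1.82% in sg2 and 2.16% in sg3. ATOH1 differed by -0.30 (SE 0.21) in sg1, -0.14 (SE 0.21) in sg2 and -0.07 (SE 0.21) in sg3. NOTCH1 differed by 0.12 (SE 0.17), 0.09 (SE 0.17) and 0.12 (SE 0.17) in sg1, sg2 and sg3. The SEs of this fit hold the letter difference, for which it has no term. These comparisons share the NTC libraries.

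With the letter as a replicate block, 4, 2 and 6 genes were called in sg1, sg2 and sg3, none a member, and 4, 2 and 2 members had an unadjusted p under 0.05, beside 7.56%, 6.14% and 7.43% of all genes in those fits. Those members were ATOH1, SPDEF, GFI1 and NOTCH1 in sg1, HES6 and NOTCH1 in sg2, and DLL4 and NOTCH1 in sg3. NOTCH1 then differed by 0.12, 0.09 and 0.12 (SE 0.04 each, edgeR unadjusted p = 0.00504, 0.0195 and 0.0052, adjusted p = 0.446, 0.739 and 0.487). ATOH1 differed by -0.28, -0.14 and -0.07 (SE 0.07 each, edgeR unadjusted p = 0.00211, 0.0823 and 0.377, adjusted p = 0.381, 0.849 and 0.875). DESeq2 called 4 genes in each guide, no member. Among the 3 guides no member passed the F test, with 0 genes called and 0 members at an unadjusted p under 0.05 (with the block, 8 genes called and 1 member at an unadjusted p under 0.05, which was GFI1 at an edgeR p of 0.0162). Of all genes, 1.38% had an unadjusted p under 0.05 without the block and 4.18% with it. NTC2 against NTC1 gave 0 genes called and 0 members at an unadjusted p under 0.05, beside 1.72% of all genes (2 genes and 1 member with the block, beside 5.06% of all genes, and 0 members with DESeq2).

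Whether the secretory factors follow the mucins was asked across the 10 libraries. The mucin mean was the mean log2 CPM of MUC2, MUC5AC and MUC5B, and both it and the regulator were taken relative to the mean of their letter, so that the letter difference drops out. MUC6, the most abundant of the listed gel-forming mucins at 33.5 RPKM, was not in that mean, and the members were not correlated with it. The p-values come from an exact permutation within letters over 14400 orders, two-sided, adjusted over 13036 genes at 1 CPM or more. These orders treat both libraries of a line as separate, so a line difference shared by both can make p too small. No gene of 13036 passed for Pearson's r, and 9.50% had an unadjusted p under 0.05. The smallest p these orders allow is 6.94e-05, too large for a single gene to pass after adjustment, however strong its relation. Even ATOH1 against itself had an adjusted exact permutation p of 0.388. A failed call here is therefore no sign that a relation is absent. Permuting whole lines instead has far fewer orders and so a still larger smallest p. It called no gene, but it could not have called a single gene on its own, so it decides nothing. A letter holds 5 libraries, too few for an r within each.

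None of the secretory factors passed against the mucin mean. ATOH1 had r = 0.24 and rho = 0.53 (exact permutation p = 0.465 and 0.108, adjusted 0.841 and 0.557). Its r was 0.63 without the B library of sg1 and 0.09 without the B library of NTC2. GFI1 had r = 0.28 and rho = 0.30 (exact permutation p = 0.434 and 0.407, adjusted 0.824 and 0.805). SPDEF had r = 0.57 and rho = 0.59 (exact permutation p = 0.0966 and 0.0754, adjusted 0.598 and 0.517). Without the A library of sg1 and the B library of sg2, the 2 farthest from the median of the mucin mean, r of SPDEF was 0.18, so its relation rests on those libraries. FOXA3 had r = 0.40 and rho = 0.48 (exact permutation p = 0.279 and 0.193, adjusted 0.755 and 0.646) and CREB3L1 had r = -0.21 and rho = -0.21 (exact permutation p = 0.609 and 0.608, adjusted 0.902 and 0.887). Against MUC2 alone r was 0.52 for ATOH1, 0.50 for GFI1 and 0.73 for SPDEF (exact permutation p = 0.200, 0.203 and 0.0281, adjusted 0.662, 0.665 and 0.474). Over all 13036 genes the median r was 0.02, with quartiles at -0.30 and 0.32.

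HES6 had the highest r of the members, 0.79, and rho = 0.94 (exact permutation p = 0.00438 and 0.00111, adjusted 0.370 and 0.308). Its r was 0.65 without the 2 farthest libraries (exact permutation p = 0.172). The lowest r of the members was that of NOTCH1, -0.54, with rho = -0.72 (exact permutation p = 0.134 and 0.0377, adjusted 0.635 and 0.456), and -0.69 without the 2 farthest libraries. HES1 had r = -0.39 and rho = -0.61 (exact permutation p = 0.275 and 0.0713, adjusted 0.752 and 0.509). DLL4 had r = 0.59 and rho = 0.60 (exact permutation p = 0.0827 and 0.0816, adjusted 0.580 and 0.520), and DLL1 had r = -0.13 and rho = 0.24 (exact permutation p = 0.756 and 0.547, adjusted 0.944 and 0.864). The r of DLL1 was 0.50 without the 2 farthest libraries. The guide lines had lower values than the NTC lines for the mucins (log2 differences -0.30 for MUC2, -0.27 for MUC5AC and -0.15 for MUC5B, adjusted p = 0.184, 0.254 and 0.301 by edgeR) and for HES6, and higher ones for NOTCH1. Without the filter on low counts all 3 mucins were called (adjusted p = 1.08e-16, 1.15e-12 and 0.00686 by edgeR). Their log2 differences there were again -0.30, -0.27 and -0.15, so the p-values changed and the sizes did not. That fit called 238 genes, against 4 with the filter. MUC2 was also called without line sg3 (-0.36, adjusted p = 0.0281), without line NTC1 (-0.39, 0.0321) and without the B library of sg3 (-0.41, 0.0166). The part of the arm in these correlations was not tested.

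**Figure D5:**
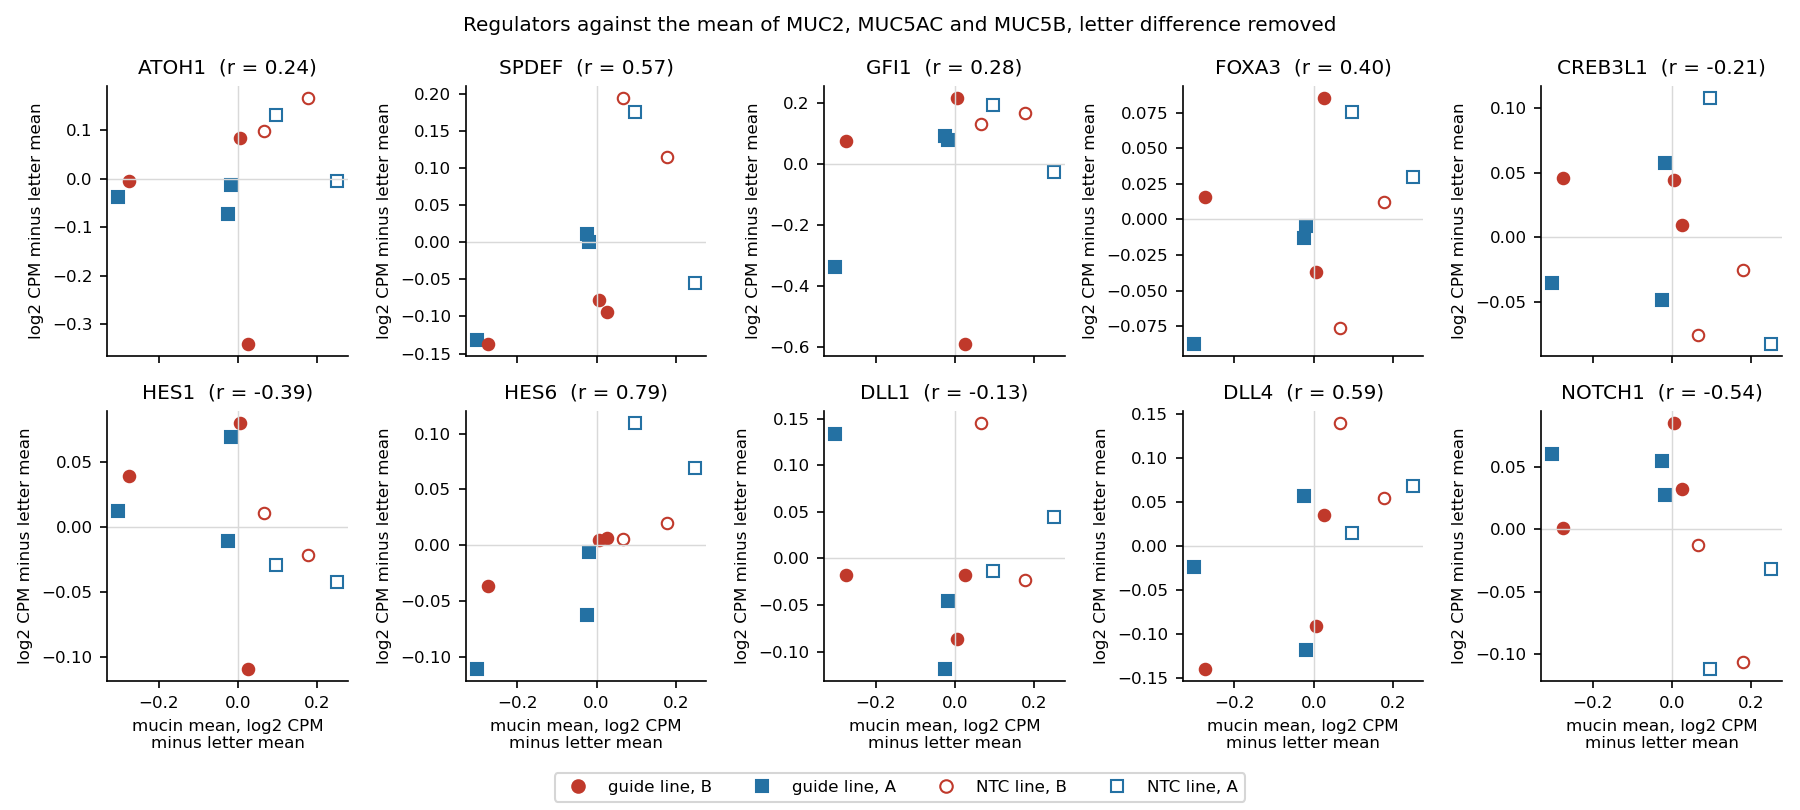
Each regulator (y axis, log2 CPM minus its letter mean) against the mucin mean (x axis, the same scale) in 10 libraries, with filled points for guide lines, open points for NTC lines, circles for B and squares for A. ATOH1 (r = 0.24) has the B library of sg1 far below the others, at -0.34, while HES6 (r = 0.79) has its higher values to the right.

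Against ATOH1 in place of the mucin mean, GFI1 had r = 0.86 and rho = 0.76 (exact permutation p = 0.0162 and 0.0202, adjusted 0.786 and 0.736; of all genes, 5.72% had an unadjusted p under 0.05). Without the B libraries of sg1 and NTC2, the 2 farthest for ATOH1, r of GFI1 was 0.50, so that relation rests in part on those libraries. SPDEF had r = 0.58 with ATOH1 (rho = 0.54, exact permutation p = 0.1103 and 0.124, adjusted 0.862 and 0.907), and 0.71 without the 2 libraries. NOTCH1 had r = -0.51 with ATOH1 (rho = -0.64, exact permutation p = 0.181 and 0.0498, adjusted 0.862 and 0.799). The 5 genes most like ATOH1 over the 10 libraries, among genes at 10 CPM or more, were TCAIM (r = 0.95), KIAA1324 (0.94), MTRR (0.94), OLFM4 (0.94) and RALGPS2 (0.92). Those most like the mucin mean, leaving out the 3 mucins that make it up, were TEAD1 (r = 0.99), INTU (0.95), KLK8 (0.94), PIGA (0.94) and SLC5A3 (0.93). None had an adjusted exact permutation p under 0.05, which these orders do not allow for a single gene whatever its r.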

How the data were processed

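Poly(A) RNA was sequenced from 10 LS180 libraries. The authors deposited 1 table of RSEM expected counts per gene on hg38; the submitters' processing notes name FastQC 0.11.2, CASAVA 1.8.2 and TopHat2 2.0.8. The annotation is not given in the sources used here. Overlapping genes are uncertain, since RSEM splits shared reads. Counts were rounded, which moved no value by over 0.5. Positions and exon lengths come from GENCODE 29, which matched 58597 of 58870 identifiers, and promoters from RefSeq (GRCh38.p14).

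edgeR 4.0.16 in R 4.3.3 (quasi-likelihood test, TMM, filterByExpr, two-sided) tested libraries summed per line between arms, line means for each guide, and letters with line as a term; Benjamini-Hochberg adjusted p over all tested genes had a threshold of 0.05. DESeq2 1.42.0 was an alternative. SE comes from the fold change and its F. Log2 CPM used a prior count of 2. The edgeR fits were also run on simulated counts with known changes in a single comparison at a time. Those counts held no other letter or line difference, unlike the real libraries, so they do not check the fits without a letter term. Totals of 39026564 to 45050950 counts per library set the precision; no interval was built from counts alone. Same-letter libraries of different lines deviated together (r from 0.483 to 0.779 in 10 pairs over 9527 genes), so the shared letters of the labels pair the samples. The labels do not say what the letters are, and a batch cannot be told apart from another shared difference. The members, the 18 gene lists and the tests were chosen with earlier results of these data known. Named are all members, 4 mucins, up to 4 genes per list and direction with the smallest p, and the 5 genes most like ATOH1 and the mucin mean. The letter change of each line against the others, GC offsets and the DESeq2 counts of listed genes were added after seeing the data. Some listed genes are counted but not reported by name here.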

Additional observations from a re-analysis of the deposited data

Results flagged for a closer look

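GFI1 stood apart in the B library of sg1, where it had 1.62 CPM, while the next lowest of the 5 B libraries had 2.61 CPM and the highest 2.87 CPM. HES6 stood apart in the B library of sg2, where it had 143 CPM, while the other 4 B libraries had 147 to 149 CPM. In each case the gap to the nearest library, taken on log2 CPM, was a larger share of the range (0.828 for GFI1 and 0.731 for HES6) than the limit of 0.71 for 5 samples. Of 52 groups of libraries examined, 2 were past such a limit, and chance gives about 1 in 20.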

How the results depend on the processing

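The letter calls of ATOH1, SPDEF, DLL1, DLL4 and NOTCH1 held in all 9 alternatives (DESeq2, RLE factors, no filter, GC offsets, each line left out), with log2 fold changes of 0.41 to 0.51 for ATOH1, 0.24 to 0.34 for SPDEF, 0.25 to 0.31 for DLL1, 0.34 to 0.41 for DLL4 and 0.35 to 0.38 for NOTCH1. The genes called between arms numbered 4, but 59 with DESeq2, 238 with no filter, 2 with the replicate block, 11 in letter A alone, and 10, 7, 13 and 29 without line sg1, sg2, sg3 and NTC1; leaving out single libraries gave 1 to 12. DESeq2 called 4 genes in each guide, against 1 by edgeR; the block called 4, 2 and 6 genes in sg1, sg2 and sg3, 8 among the guides and 2 for NTC2 against NTC1, and changed no other call. Leaving out single libraries gave 1 to 2 genes for sg1 and 0 to 2 for sg2. The arm difference of FOXA3 (-0.01) was 0.057 in letter B alone, 0.0175 without line NTC2 and -0.0699 to 0.0301 without single libraries; that of CREB3L1 (0.03) was -0.0252 in letter A alone and -0.0235 without line NTC1; that of DLL1 was -0.15 to 0.027 without single libraries. Leaving out 1 library unbalances the letters. The guide difference of ATOH1 was then -0.41 to 0.091 in sg2 and -0.351 to 0.174 in sg3, that of GFI1 -0.233 to 0.126 in sg2 and -0.247 to 0.263 in sg3, that of DLL4 -0.282 to 0.14 in sg1, and that of NOTCH1 -0.064 to 0.279 in sg1, -0.075 to 0.235 in sg2 and -0.102 to 0.315 in sg3. The r with the mucin mean was then -0.048 to 0.603 for GFI1, -0.464 to 0.061 for CREB3L1, -0.285 to 0.394 for DLL1 and 0.09 to 0.63 for ATOH1, and 0.498 for DLL1 without the 2 farthest libraries. Without centring by letter, 16 genes correlated with the mucin mean, and r was -0.41 for FOXA3, 0.22 for CREB3L1, 0.62 for DLL1 and 0.62 for NOTCH1; it was 0.74 for ATOH1, 0.83 for SPDEF, 0.60 for GFI1, 0.86 for DLL4 and 0.19 for HES6, values that hold the letter difference, and no member was among the 16 (adjusted permutation p from 0.132). The causes were not tested. GFI1, at 62 to 124 counts, is the member whose depth limits precision most.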
